A study of Rattus norvegicus with 6 samples.

Results

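The fibrillar collagens and lysyl oxidases are taken here as 8 collagen genes and 2 lysyl oxidase genes, measured in RNA of endothelial cells isolated from rat liver: Col1a1, Col1a2, Col3a1, Col5a1, Col5a2, Col12a1, Col14a1, Col15a1, Lox and Loxl1. They were read on Affymetrix rat 230A arrays, where each gene is measured by 1 or more probe sets, and every probe set that the platform annotation gives to a member alone was kept, dim or bright. All 10 genes were found, with 17 probe sets, out of 10411 genes with a probe set of their own. The 3 control arrays hold cells of Wistar rats described only as controls, and the 3 cirrhotic arrays cells of adult male Wistar rats made cirrhotic by a protocol that is not given in the sources used here. In both groups the liver was perfused with collagenase, the cells were spun on a density gradient and captured on magnetic beads carrying an antibody whose target is not given. The age and sex of the controls and the number of rats behind an array are not given either, so p-values measure the spread between arrays, which may be technical, and 3 arrays a group limit the precision.

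Fibrillar collagens are long triple helices that assemble outside the cell into the fibres of scar and other connective tissue. Types I and III make up most of the fibre, type V is built into it and limits its width, and types XII and XIV lie on its surface, while type XV sits beside basement membranes. Lysyl oxidases oxidise lysines of collagen and elastin so that the molecules become crosslinked and the fibre resists breakdown. In fibrotic liver these genes are known as products of activated stellate cells, portal fibroblasts and myofibroblasts more than of endothelium.

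The upstream regions of 5 of the 10 genes were found in the RefSeq table of rat promoters (build GRCr8, 250 bases before to 50 after each annotated start). Of these, Col1a2 and Loxl1 are shown because their signals rose most, and Col15a1 because its difference was the closest to 0. Capitals mark matches on either strand to 5 motifs. These are the letters CCAAT, known from many promoters, the letters TATAAA of the TATA box, the letters GGGCGG bound by Sp1 and its relatives, the letters TGANTCA bound by AP-1, and the letters CAGAC bound by SMAD proteins, and no matches overlap one another. The windows are chr4:33518307-33518606 on the plus strand, chr8:67612175-67612474 on the minus strand and chr5:66297296-66297595 on the plus strand.
Col1a2: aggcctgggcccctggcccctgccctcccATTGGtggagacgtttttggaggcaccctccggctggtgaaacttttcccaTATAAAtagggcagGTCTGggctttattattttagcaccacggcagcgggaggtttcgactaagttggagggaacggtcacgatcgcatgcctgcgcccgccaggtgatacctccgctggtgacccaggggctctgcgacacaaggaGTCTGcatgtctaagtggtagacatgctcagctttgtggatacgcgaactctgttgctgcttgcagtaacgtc
Loxl1: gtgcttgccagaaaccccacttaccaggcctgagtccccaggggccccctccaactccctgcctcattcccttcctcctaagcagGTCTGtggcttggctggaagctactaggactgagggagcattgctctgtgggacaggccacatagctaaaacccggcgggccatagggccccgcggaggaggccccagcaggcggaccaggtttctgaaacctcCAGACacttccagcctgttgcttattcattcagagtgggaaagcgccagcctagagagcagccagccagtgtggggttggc
Col15a1: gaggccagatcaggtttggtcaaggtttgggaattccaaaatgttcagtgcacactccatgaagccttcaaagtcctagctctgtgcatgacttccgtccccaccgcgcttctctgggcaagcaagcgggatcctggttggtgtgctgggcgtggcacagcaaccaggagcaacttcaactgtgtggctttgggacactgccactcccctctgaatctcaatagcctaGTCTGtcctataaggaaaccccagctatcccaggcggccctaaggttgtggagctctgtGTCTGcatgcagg
The motif CCAAT was found in Col1a2 alone of the 5, on the opposite strand, 221 bases before the start, and in 37.5% of the 33469 promoters of the table. Col1a2 was also the one with a TATA box, 170 bases before the annotated start, a motif held by 14.2% of the table. The Sp1 motif was found only in Col5a1 (33.1% of the table) and the AP-1 motif in none of the 5 (7.33%). The SMAD motif was held by Col1a2, Col5a2 and Loxl1, which rose, by Col15a1, and by 50.1% of the table. These matches describe the letters in the windows and do not show binding.

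Most of these genes were higher on the cirrhotic arrays, with the lysyl oxidases and type I collagen in front. Signals were compared on the log2(signal + 16) scale, where 16 was added so that very dim signals do not dominate, and a probe set is said to rise or fall where its limma p, adjusted over all probe sets tested, is under 0.05. Of the 14 member probe sets bright enough to be tested, 11 rose, none fell and 3 did not pass, and 8 of the 10 genes had a probe set that rose. In the same fit 25.4% of the 9519 tested probe sets changed, 12.3% rising and 13.2% falling (1167 and 1254 probe sets, or 925 and 1480 with arrays centred on their medians). The median difference was 1.89 for the 14 and -0.02 for all tested. Of the 14, 11 had every cirrhotic signal above every control signal and none the reverse, against 20.8% and 24.1% of all tested. With no filter it was 13 of 17, against 17.4% of the 15866 probe sets. The control means of Lox, Loxl1, Col12a1 and Col3a1 on their tested probe sets lay under the filter's threshold of 127, so these passed it through their cirrhotic arrays, and the figures only describe the probe sets tested. All 11 rises still passed under each of the other scalings, added constants, filters and left-out arrays that were tried, with adjusted p-values up to 0.0377. With the array number as a block they also passed, with adjusted p-values up to 0.0412. In that fit array 1 of each group stood alone, so the differences came from arrays 2 and 3 only.

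Type I collagen, the main protein of scar, read far higher on the cirrhotic arrays. Of its first chain, Col1a1, probe set 1388116_at gave signals of 468, 214 and 179 on control arrays 1, 2 and 3 and of 6869, 4134 and 5138 on cirrhotic arrays 1, 2 and 3. The lowest cirrhotic signal was thus well above the highest control signal. The rise was 4.24 (SE 0.34, n = 3 per group, limma adjusted p = 0.000457). The other Col1a1 probe set, 1370864_at, read 266, 250.3 and 166 in control and 4537, 1919 and 2202 in cirrhotic arrays. It rose by 3.49 (SE 0.33, adjusted p = 0.000637), and its groups did not overlap either. In a bulk sample, more cells of a type and more RNA per cell cannot be told apart.

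Col1a2, the second chain of type I collagen, moved the same way on both of its probe sets. Probe set 1370155_at read 881, 579 and 498 in control and 7632, 3831 and 5764 in cirrhotic arrays, a rise of 3.09 (SE 0.29, adjusted p = 0.000624). Probe set 1387854_at read 334, 345 and 199.8 in control and 5038, 2317 and 3231 in cirrhotic arrays, a rise of 3.49 (SE 0.31, adjusted p = 0.000554). Every cirrhotic array lay above every control array on both. The promoter with the CCAAT and TATA letters printed above belongs to this gene. On the brightest probe sets, the rise of Col1a1 exceeded that of Col1a2 by 1.15 (SE 0.19), with an exact two-sided permutation p of 0.1, the smallest that 3 against 3 arrays allow, and 0.15 adjusted over 3 such pairs. On the dimmer probe set of each gene both rises were 3.49.

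**Figure D1:**
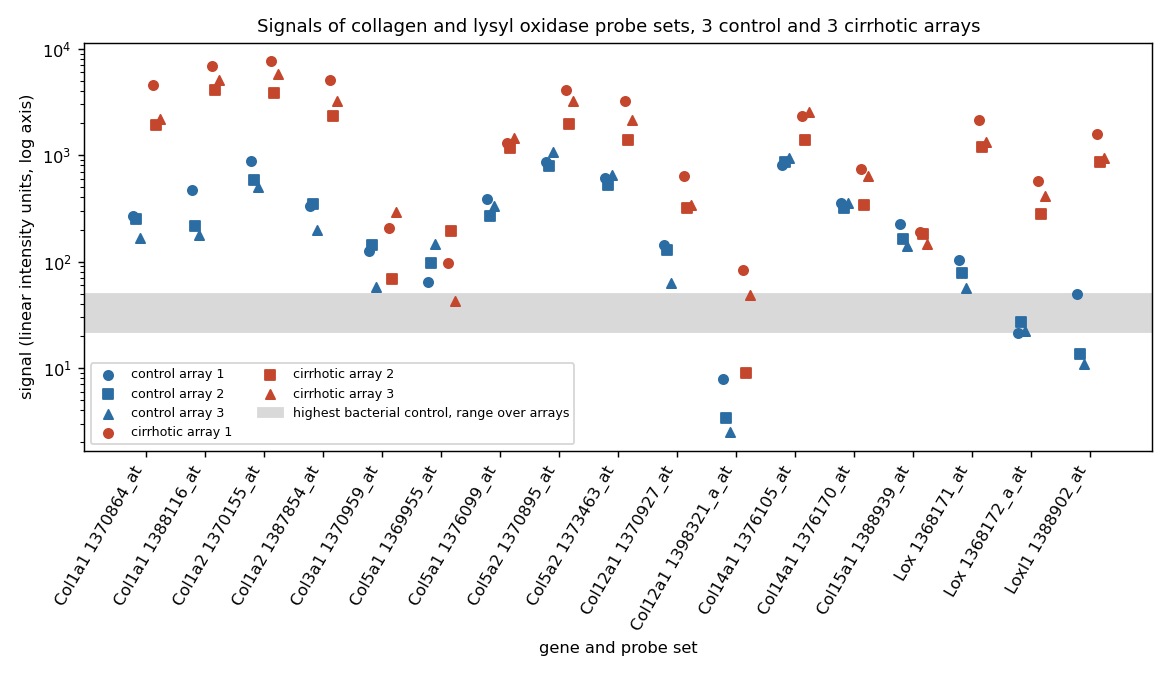
Signal of each of the 17 probe sets (log axis) on the 3 control arrays (blue) and the 3 cirrhotic arrays (red), with one symbol shape per array number; the grey band spans the highest bacterial control probe set of each array, from 21.7 to 49.9. The groups are apart for 13 probe sets, among them all of Col1a1, Col1a2, Lox and Loxl1, and mixed for Col3a1, Col15a1, the dim probe set of Col5a1 and the dimmer one of Col14a1.

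Col3a1, the single chain of type III collagen, did not pass the test on its only probe set. It read 126, 143 and 58.0 in control and 205, 68.8 and 295 in cirrhotic arrays, so that cirrhotic array 2 fell within the controls. The difference was 0.60 (SE 0.49, adjusted p = 0.402), with a 95% interval from -0.54 to 1.74. Without cirrhotic array 2 it was 1.14 (adjusted p = 0.0558), and without cirrhotic array 3 or control array 3 it was 0.21 or 0.26. The probe set was just bright enough to be tested, at 130.1 averaged over all arrays on the log scale against a threshold of 127. In the RefSeq gene table (GRCr8) the next protein-coding gene after Col3a1 is Col5a2, described next.

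The chains of type V collagen, the collagen inside the type I fibre, rose by between 1.71 and 1.94. For Col5a1, probe set 1376099_at read 390.5, 268 and 334 in control and 1293, 1175 and 1463 in cirrhotic arrays. This rise of 1.94 (SE 0.17, adjusted p = 0.000518) had the most even cirrhotic arrays of the 11 rises, the highest being 1.24 times the lowest. A second Col5a1 probe set, 1369955_at, did not show it: its signals of 63.6, 96.8 and 147 in control and 95.9, 194 and 42.5 in cirrhotic arrays overlapped and were too dim to be tested. In a fit with no filter on dim probe sets its difference was -0.03 (limma adjusted p = 0.978). The 2 probe sets of Col5a1 therefore disagree.

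Col5a2 gave the same picture on both probe sets. Probe set 1370895_at read 866, 793 and 1061 in control and 4137, 1970.4 and 3230 in cirrhotic arrays, a rise of 1.71 (SE 0.26, adjusted p = 0.00349). Probe set 1373463_at read 604.5, 518.5 and 654 in control and 3251, 1401 and 2128 in cirrhotic arrays, a rise of 1.83 (SE 0.28, adjusted p = 0.00349). Neither showed an overlap between groups. On the brightest probe sets the changes of Col5a1 and Col5a2 differed by 0.24 (SE 0.31, exact permutation p = 0.7).

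The collagens of the fibre surface rose as well, each on 1 of its probe sets. For Col12a1, probe set 1370927_at read 143, 127 and 63.5 in control and 636, 320.5 and 338 in cirrhotic arrays, a rise of 1.81 (SE 0.34, adjusted p = 0.00734) with no overlap. With 126 added in place of 16 the rise was 1.20 (adjusted p = 0.00765). Its other probe set, 1398321_a_at, was near the floor of the array, at 7.90, 3.40 and 2.50 in control and 83.9, 8.90 and 48.9 in cirrhotic arrays. All 3 controls and cirrhotic array 2 lay within the bacterial control probe sets there, so no fold is given.

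For Col14a1, probe set 1376105_at read 800.3, 861 and 935 in control and 2331, 1381 and 2544 in cirrhotic arrays. The rise of 1.21 (SE 0.23, adjusted p = 0.00762) was the smallest of the 11, over control arrays that differed by 1.17 times at most. Probe set 1376170_at read 351.5, 317 and 354 in control and 748, 341 and 632 in cirrhotic arrays, with cirrhotic array 2 inside the controls. Its difference of 0.65 (SE 0.26, adjusted p = 0.106) did not pass, and without cirrhotic array 2 it was 0.98 (adjusted p = 0.00494).

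Col15a1, a collagen that carries an endostatin-like fragment and lies at basement membranes, was the member with the least difference among those tested. It read 224, 164 and 141 in control and 190.3, 183 and 145 in cirrhotic arrays, so that each cirrhotic signal lay inside the control range. The difference was -0.01 (SE 0.20, adjusted p = 0.971), with a 95% interval from -0.48 to 0.45. Its sign changed when control array 1 or cirrhotic array 3 was left out.

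Both lysyl oxidases went from dim to bright signals. Lox, the enzyme that gives the family its name, read 104, 78.7 and 56.7 in control and 2141, 1195.5 and 1339 in cirrhotic arrays on probe set 1368171_at, a rise of 4.02 (SE 0.26, adjusted p = 0.000361). Probe set 1368172_a_at read 21.4, 27.3 and 22.3 in control and 572, 277 and 410.5 in cirrhotic arrays. All its controls lay within the range of the bacterial probe sets, a floor against which the cirrhotic signal was at least 9.83-fold higher. It was too dim over all arrays to be tested, and only this bound is given.

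Loxl1, which acts on elastin as well as collagen, read 50.0, 13.6 and 10.8 in control and 1589, 869 and 931 in cirrhotic arrays. The rise was 4.88 (SE 0.38, adjusted p = 0.000442), and no control array came near a cirrhotic one. Its size depends on the number added before taking logs. Control arrays 2 and 3 lay within the bacterial control probe sets, and control array 1, at 50.0, read just above their highest signal of 49.9 there. The rise of Loxl1 was 5.72 with 1 added and 3.02 with 126, where the Col1a1 probe set 1388116_at, at 3.77, exceeded it. The rise of Lox was 0.86 smaller than that of Loxl1 (-0.86, SE 0.24, exact permutation p = 0.1, 0.15 adjusted over the 3 pairs). With 126 added this gap was -0.03, so the order of the enzymes rests on dim control signals.

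**Figure D2:**
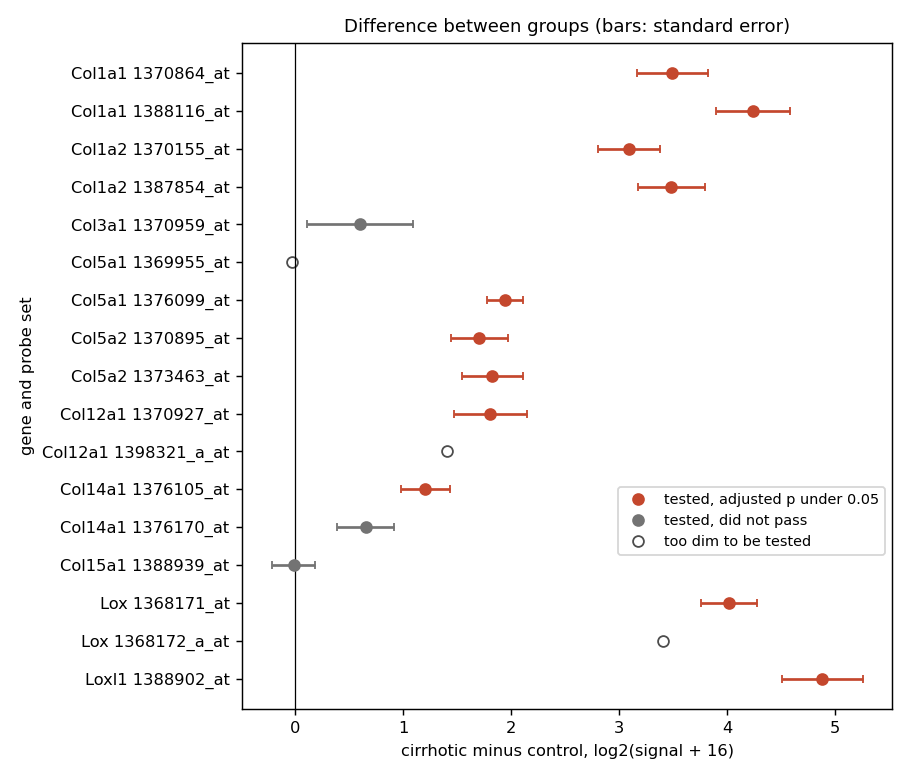
Difference between cirrhotic and control arrays for each probe set, in log2(signal + 16), with its standard error (red, adjusted p under 0.05; grey, tested without passing; open, too dim to be tested and without an error). The lysyl oxidases and type I collagen lie above 3, the other probe sets that rose between 1.21 and 1.94, and Col15a1 at -0.01 and the untested Col5a1 probe set at -0.03. The open points of Lox (3.40) and Col12a1 (1.41) shift with the added constant, and no fold is read from them.

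The cirrhotic arrays did not share the rise evenly. Cirrhotic array 2 was the lowest of the 3 for all 11 probe sets that rose, and cirrhotic array 1 the highest for 9. Their medians, as log2 deviations from the mean of the cirrhotic arrays, were 0.50 for array 1, -0.48 for array 2 and -0.04 for array 3. Among the controls, array 1 was the highest and array 3 the lowest for 7 of the 11 each, with medians of 0.24 and -0.37. For the type I chains and Col5a2 the highest cirrhotic signal was between 1.66 and 2.36 times the lowest.

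Markers of other cell types were in part higher on the cirrhotic arrays as well, to a different extent from list to list. Of 22 measured stellate cell and myofibroblast markers, 17 were tested, of which 11 rose and 1, Ecm1, fell (by 1.24). For comparison with this and the other marker lists, 12.3% of all tested probe sets rose and 13.2% fell. The lists were chosen with earlier results of these data known. In this list and several below, some genes that rose had control means under the filter's threshold of 127. They passed it through their cirrhotic arrays, so the counts only describe the genes tested. Tpm1, a tropomyosin, rose by 2.12 (SE 0.16, adjusted p = 0.000442) and Vim, an intermediate filament of mesenchymal cells, by 2.17 (SE 0.21). The summed signal of the list lay between 11027 and 12218 in control and between 20331 and 28068 in cirrhotic arrays. Cirrhotic array 1 had the highest sum and cirrhotic array 2 the lowest, the same order as the collagen medians. The control arrays did not share that order: control array 3 had the highest sum and control array 2 the lowest, while the collagen median was highest on control array 1 and lowest on control array 3. Some defining markers did not pass: Lrat and Reln, of stellate cells that store vitamin A, had differences of 0.35 and 0.25 (adjusted p = 0.461 and 0.487). Acta2, the smooth muscle actin of myofibroblasts, was too dim to be tested. It read between 14.7 and 20.9 in control and between 37.9 and 97.3 in cirrhotic arrays, without overlap. All 3 controls and cirrhotic array 3 lay within the bacterial control probe sets there, and Ngfr did on all 6 arrays. Des was too dim to be tested as well.

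Of 8 measured portal fibroblast markers 4 rose, none fell and 1 was too dim, and the summed signal went from between 1266 and 1782 to between 4586 and 6992. Entpd2, an ectoenzyme of portal fibroblasts, rose by 1.61 (SE 0.19, adjusted p = 0.0014). Mfap4, Eln and Lum, which also rose, and Fbln2 stand in the list of fibre proteins below as well, as does Dcn of the stellate cell list. Gas6, Msln and Fbln2 did not pass, with differences of -0.14, -0.02 and -0.00. Of 10 measured cholangiocyte markers 7 rose and none fell, with sums between 775 and 1544 in control and between 5246 and 13691 in cirrhotic arrays. Most of those that rose had control means under the filter's threshold of 127, and so were tested through their cirrhotic arrays. The keratins Krt18 and Krt8 rose by 2.46 and 3.13. Cldn3, a tight junction protein whose controls all lay within the bacterial probe sets, was at least 11.8-fold higher (adjusted p = 0.000518). Krt19 had a difference of 2.07 that did not pass (limma adjusted p = 0.0826). Its signal of 70.0 on cirrhotic array 3 lay inside the control range. Krt7, with a difference of -0.00, was too dim to be tested. Among the cirrhotic sums of this list that of array 3 was the lowest, unlike for the collagens. Of 17 hepatocyte markers 7 rose, none fell and 10 did not pass. Apoa1 rose by 2.59, Fgg by 1.51, and Ahsg rose too (adjusted p = 0.0068). Alb, Ttr and Hnf4a, with differences of 0.20, 0.17 and 0.04, did not pass, nor did Apoa2 and Cyp3a2, with -0.69 and -0.57. The sum of the list went from between 35854 and 52728 to between 44546 and 90429, with cirrhotic array 3 highest. The call of Fgg ended without control array 3 or cirrhotic array 1. Of 10 tested macrophage markers Laptm5 and Lyz2 rose, Clec4f fell and 7 did not pass, with a median difference of 0.17. These shares are near those of all tested probe sets. The sum of this list went from between 4494 and 9178 to between 5831 and 12691, so that the groups overlapped. The call of Lyz2 ended without control array 3.

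Most endothelial markers were lower in the cirrhotic group, and none lay within the bacterial control probe sets on any array of either group. Of 13 general endothelial genes 11 fell and Cldn5, a tight junction protein, rose, and the summed signal was between 36316 and 37389 in control and between 19494 and 21108 in cirrhotic arrays. Mmrn2 and Eng fell by 1.33 and 1.12. Of 9 sinusoidal genes 8 fell, among them Bmp2, Gpr182 and Stab1, and Cd36 rose, with sums between 43802 and 48486 and between 19361 and 23088. The part of any of these cell types in the collagen and lysyl oxidase signals was not tested.

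**Figure D3:**
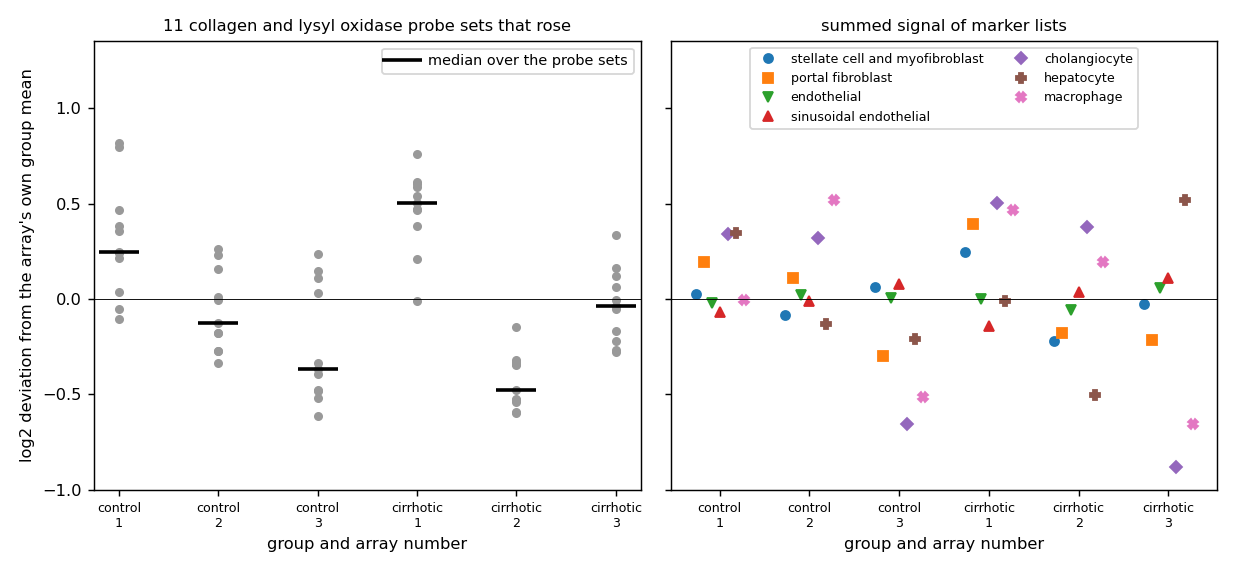
Left, the 11 probe sets that rose (grey points, with their median as a bar); right, the summed signal of each marker list, one symbol per list; both as log2 deviation of each array from the mean of its own group. Cirrhotic array 2 is lowest for the collagens and for the stellate cell, endothelial and hepatocyte sums, and cirrhotic array 3 for the portal fibroblast, cholangiocyte and macrophage sums.

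The machinery that folds and trims collagen rose in part. Of 23 measured genes of collagen processing 21 were tested, of which 9 rose and none fell, with a median difference of 0.07 against -0.02 for all tested probe sets. Of the latter 12.3% rose and 13.2% fell. Plod2, which hydroxylates lysines of the collagen ends and so sets the kind of crosslink that lysyl oxidases form, read 157, 136 and 147.5 in control and 1573, 1252 and 555 in cirrhotic arrays (2.69, SE 0.34, adjusted p = 0.00166). Its partner chaperone Fkbp10 rose by 1.64 (SE 0.22, adjusted p = 0.00199). Pcolce, which helps remove the end of the procollagen chain, rose by 2.69 (SE 0.51, adjusted p = 0.00787), or by 2.07 without control array 2, whose signal of 50.2 stood below those of 299 and 169. These 3 calls held with each array left out.

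The other 6 rises in this list were small and less secure. They were those of Prdx4, Serpinh1, the collagen chaperone HSP47, P3h1, a prolyl hydroxylase, the transport gene Sec24d, the procollagen protease Bmp1 and the isomerase Ppib, between 0.38 and 0.80. Sec24d no longer passed without control array 1 or cirrhotic array 1, Prdx4 without control array 2 or 3 or cirrhotic array 1, and Serpinh1 without control array 1 or 2 or cirrhotic array 1. P3h1 lost its call when a control array, whichever it was, or cirrhotic array 1 was left out, and so did Ppib and Bmp1, which also lost it without cirrhotic array 2 and without cirrhotic array 3, respectively. The count for the list was between 3 and 8 with 1 array left out. It was 6 with median centring and also with no filter, where Bmp1, P3h1 and Ppib did not pass, and 8 with quantile normalization, where P3h1 did not. The enzymes P4ha1 and P4hb, which hydroxylate prolines and so hold the helix together, had differences of -0.13 and 0.26 (adjusted p = 0.742 and 0.158), and Plod1 and Plod3 of 0.02 and 0.03.

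Proteins that bind or accompany the fibre were mostly higher too. Of 19 measured, 16 were tested, of which 13 rose and 1 fell, with a median of 1.69. Of all tested probe sets 12.3% rose and 13.2% fell. Aspn and Fbln1, among those that rose, had control means of 70.9 and 82.9, under the filter's threshold of 127. These 2 were tested through their cirrhotic arrays. Mfap4, a microfibril protein, rose most, by 3.29 (SE 0.26, adjusted p = 0.000457), from signals of 353, 307 and 183 to 3625, 2314 and 2597. Fibronectin (Fn1), on which collagen fibres assemble, rose by 2.33 (SE 0.32), the fibre-binding proteoglycan Dcn by 2.00 (SE 0.22), and the elastic fibre genes Fbln5, Eln and Fbn1 by 1.94, 1.74 and 1.70. None of these 6 lost its call when an array was left out. Tgfbi, a collagen-binding adhesion protein, fell by 0.97, and Sparc and Fbln2 had differences of -0.19 and -0.00.

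Of the other collagens 21 were measured and 12 were bright enough to be tested, of which 9 rose and none fell (median 1.68). Of all tested probe sets 12.3% rose and 13.2% fell. The control means of Col8a1, Col8a2 and Col4a5 were 55.8, 108 and 123, under the filter's threshold of 127. These genes passed it through their cirrhotic arrays. Col8a1 and Col8a2, short-chain network collagens of vessel walls, rose by 3.25 (SE 0.43) and 2.31 (SE 0.32), and Col6a3, of the microfibrils between cell and fibre, by 2.63 (SE 0.28). The basement membrane genes Col4a5, Col18a1 and Col4a1 rose by 1.82, 1.54 and 1.03. Col18a1 is a close relative of Col15a1. On control arrays 1 and 2 Col8a1 lay within the bacterial probe sets, so its size depends on the added constant. The type V gene Col5a3 read at most 12.7 on any array. Of 4 measured collagen receptors, Ddr1 and Ddr2, tyrosine kinases switched on by collagen, rose by 1.05 (SE 0.23, adjusted p = 0.0146) and 1.07 (SE 0.28, adjusted p = 0.0288). Ddr1 lost its call without control array 3 or cirrhotic array 1, and Ddr2 also without control array 2 or cirrhotic array 3. Itga1, a collagen-binding integrin chain, fell by 1.17 (SE 0.21, adjusted p = 0.00704), from signals of 4042, 3865 and 4917 to 1771, 1435 and 2611. Its partner Itgb1 had a difference of 0.23 (adjusted p = 0.122).

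**Figure D4:**
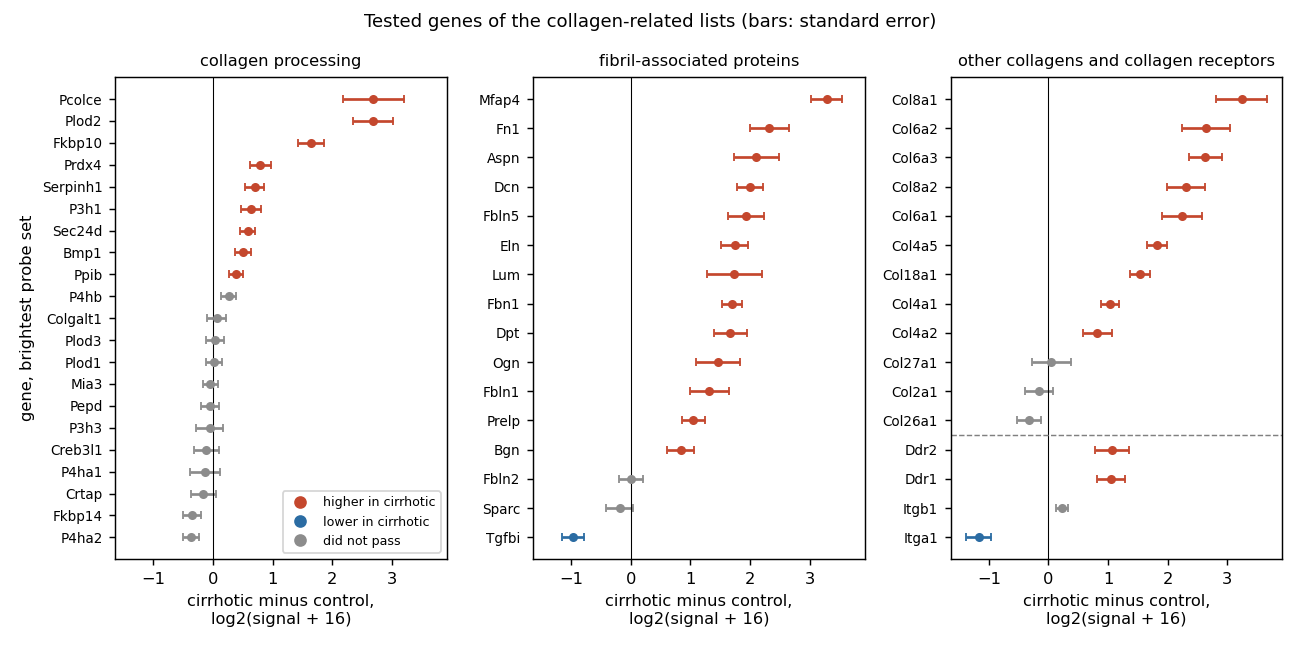
Difference between cirrhotic and control arrays, log2(signal + 16) with its standard error (red, higher in cirrhotic; blue, lower; grey, did not pass), for the tested genes of collagen processing, fibre-associated proteins, other collagens and, below the dashed line, collagen receptors. Most processing genes lie near 0 apart from Pcolce, Plod2 and Fkbp10, while 13 of 16 fibre-associated genes and 9 of 12 other collagens are higher in cirrhotic arrays.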

How the data were processed

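The deposited table holds 1 signal intensity per probe set and array on a linear scale, per the labels from Affymetrix rat 230A arrays; the sources used here give neither software nor summary method. The mean without the lowest and highest 2% ran from 398.7 to 399.3 over the arrays, and the deposited scaling was left as it is. Median signals were 178 to 201. 0 other columns of values were left aside.

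Signals were turned into log2(signal + 16), 16 being the 10th percentile. The 57 control probe sets and the dimmest 40% by mean over all arrays were left out (6347), which kept 9519. Groups came from sample titles; the control array without a number was called 1. The test was that of limma 3.58.1, run in R 4.3.3 with lmFit and a moderated variance that follows the signal, two-sided, Benjamini-Hochberg over all tested probe sets, threshold 0.05. Lists used the brightest probe set per gene. A group gives only a bound where each of its arrays read no higher than the brightest of the 27 bacterial controls there, a rule chosen after seeing the data. Differences between paired genes were tested by exact permutation.

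Symbols came from the platform annotation (12783 probe sets with 1 symbol, 312 with several, 2771 with none); all 17 member probe sets matched the GRCr8 gene table by identifier. The text names every member, up to 6 genes with the smallest p of each collagen-related list and every processing gene that passed, 3 genes of each marker list, and the 5 genes most like the members. Others were named after their values were seen. These were Tgfbi, Sparc, Fbln2, Aspn, Fbln1, Lum, Ecm1, Col5a3, P4ha1, P4hb, Plod1, Plod3, Cd36, Postn, Tnc and Col11a1. So were some, not all, of the stellate, portal fibroblast, cholangiocyte and hepatocyte markers that were too dim or did not pass. Members and lists were chosen with earlier results of these data known. Alternatives were median centring, quantile normalization, 1 or 126 (the 40th percentile) added, no filter, the array number as a block, the probe set with the smallest p and each array left out. The test was checked on simulated data.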

Additional observations from a re-analysis of the deposited data

How the results depend on the processing

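The 11 rises of collagen and lysyl oxidase probe sets passed under all 12 alternatives, and the count was 11 or 12. Both groups carry the numbers 2 and 3 in their titles, and these were used as a replicate block. Array 1 of each group had a block of its own, so this fit took the differences from arrays 2 and 3 only. It thus differs from the main fit in the arrays compared as well as in the block. With it 904 probe sets passed in place of 2421 (499 higher and 405 lower, in place of 1167 and 1254). Of the lists, 3 processing genes passed in place of 9 and 1 receptor in place of 3. Deviations of same-numbered arrays from their group means correlated at -0.01 and -0.16. With 2 such pairs and group means of 3 arrays, these values cannot show whether the arrays share more than a number. With each array left out in turn, between 1341 and 2472 probe sets passed (627 to 1256 higher, 694 to 1216 lower), with 1341 without control array 3 and 1366 without cirrhotic array 1, and between 3 and 8 processing, 10 and 14 fibre-associated, 1 and 3 receptor and 8 and 9 other collagen genes. The Col15a1 difference, -0.01 and not called, was 0.089 with the block and between -0.15 and 0.16 with an array left out, above 0 without control array 1 (0.16) and cirrhotic array 3 (0.096). The cause of these shifts was not tested. Signal over background limits Col3a1, Loxl1 and the dim probe sets of Lox, Col5a1 and Col12a1, whose size of change depends on the added constant.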

Other observations

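Some genes of the fibre were too dim over all arrays to be tested although their groups did not overlap. Postn, a matrix protein of wound tissue that helps activate lysyl oxidase, read at most 8.20 in control and 432, 73.3 and 84.1 in cirrhotic arrays. Tnc, a matrix protein of wound edges, read 19.0, 12.5 and 19.2 in control and 527, 128 and 97.7 in cirrhotic arrays. Both were highest on cirrhotic array 1, the array with the highest type I collagen signals. Col11a1, a minor fibrillar collagen, read at most 1.10 in control and between 9.20 and 31.8 in cirrhotic arrays, within the bacterial control probe sets.

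The genes outside the lists whose log2 values over the 6 arrays followed the mean of the 10 members most closely were Psmb7, Ndufc2, Mrpl45, Lgals1 and Twsg1, with Pearson's r between 0.992 and 0.995. The points share arrays and the split into groups, and 206 of 7009 genes compared had an r above 0.95. Lgals1, the lectin galectin-1, rose by 2.95 (SE 0.30, limma adjusted p = 0.00079), and Twsg1, a secreted modulator of BMP signals, by 1.34 (SE 0.19, adjusted p = 0.00288). The proteasome subunit Psmb7 rose by 0.43 and the mitochondrial ribosome gene Mrpl45 by 0.64, while Ndufc2, of respiratory complex I, had a difference of 0.20 that did not pass (adjusted p = 0.221).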
